A study of Homo sapiens with 10 samples.

Results

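Transcript levels of 10 genes of the YAP/TEAD pathway were compared between HCT116-WT and HCT116-CD276KO cells. They were selected by symbol from the 58050 rows of the deposited TPM table, where each matched 1 Ensembl ID, and comprised the co-activators YAP1 and WWTR1, the transcription factors TEAD1 and TEAD4, and the target and feedback genes CCN1, CCN2, ANKRD1, AMOTL2, LATS2 and AJUBA. HCT116 is an established human colorectal carcinoma cell line. The HCT116-CD276KO cells were a single-cell clone in which CD276, the immune checkpoint molecule B7-H3, had been targeted by electroporation of Cas9 ribonucleoprotein. The labels of the HCT116-WT libraries give the genotype WT and do not state whether these cells had received the scrambled guide RNA. Neither group was given a further treatment, and each comprised 5 biological replicates. The study kept HCT116-WT and HCT116-CD276KO cells in different flasks, and whether each replicate had its own flask is not stated. The p-values therefore describe the spread between replicates of 1 clone and 1 parental line. The effect of CD276 loss cannot be told apart from that of clonal selection. Polyadenylated RNA was sequenced, and levels are given in TPM, a measure of transcript abundance whose values are corrected for transcript length and sum to the same total in every library.

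The Hippo pathway is a kinase cascade that senses cell density, polarity and mechanical tension. STK3 and STK4, with their scaffold SAV1, activate LATS1 and LATS2, which phosphorylate YAP1 and TAZ, the protein encoded by WWTR1, and thereby keep both out of the nucleus. When LATS activity is low, the co-activators enter the nucleus, where they bind TEAD transcription factors at the DNA motif GGAATG and drive genes of cell growth, matrix and feedback inhibition. In the intestinal epithelium the pathway is known for its part in regeneration and in colorectal tumour growth. Phosphorylation and location of the proteins were not measured here, only RNA.

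CCN2 and ANKRD1 are classic TEAD targets, and their promoters are shown because the motif recurs in both although CCN2 was expressed in every library and ANKRD1 was near 0. Each sequence is the 250 bases that end 1 base before the transcription start annotated by RefSeq (GRCh38.p14), read 5′ to 3′ on the strand of the gene, with matches to GGAATG in capitals. The windows are chr6:131951373-131951622 for CCN2 and chr10:90921088-90921337 for ANKRD1, both on the minus strand.
CCN2 promoter: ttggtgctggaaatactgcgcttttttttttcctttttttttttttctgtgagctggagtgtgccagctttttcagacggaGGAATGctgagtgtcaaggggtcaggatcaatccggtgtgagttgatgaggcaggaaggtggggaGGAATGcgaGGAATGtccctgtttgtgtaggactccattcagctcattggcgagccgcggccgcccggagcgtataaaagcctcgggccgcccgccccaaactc
ANKRD1 promoter: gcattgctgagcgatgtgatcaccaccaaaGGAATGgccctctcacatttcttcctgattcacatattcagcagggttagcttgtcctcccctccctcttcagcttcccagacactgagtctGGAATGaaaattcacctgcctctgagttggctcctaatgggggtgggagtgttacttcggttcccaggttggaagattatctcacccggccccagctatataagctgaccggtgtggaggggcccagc
The CCN2 window held 3 matches, which began 169, 104 and 95 bases before the start, and the ANKRD1 window held 2, at 220 and 128 bases. Among all 35116 promoter windows of this length, searched on both strands, 11.9% held at least 1 match, 0.940% at least 2 and 0.0826% at least 3.

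Promoter windows were found for 7 of the 10 genes, 10 windows in all, of which 5 held the motif. Besides CCN2 and ANKRD1, a single match was present at YAP1, 162 bases before the start, at the second annotated start of AMOTL2, 69 bases before it on the opposite strand, where the motif reads CATTCC, and at the second start of AJUBA, 59 bases before it. These 30-base stretches lie at chr11:102110273-102110302, chr3:134374499-134374528 and chr14:22976884-22976913.
YAP1 site: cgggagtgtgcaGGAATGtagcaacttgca
AMOTL2 site: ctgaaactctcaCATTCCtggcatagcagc
AJUBA site: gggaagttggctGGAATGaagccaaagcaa
The windows of WWTR1 and LATS2 and the first windows of AMOTL2 and AJUBA did not contain these letters. No window was matched for TEAD1, TEAD4 or CCN1. The motif TGANTCA, bound by AP-1 factors that often share enhancers with TEADs, was searched in the same way; it occurred in 6.57% of all windows and in 1 of these 10, that of ANKRD1. It shares no bases with the GGAATG matches there.

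CD276 itself was measured at 49.3, 42.0, 53.6, 38.1 and 43.3 TPM in HCT116-WT replicates 1 to 5 and reached 4.4, 7.42, 5.79, 4.79 and 4.89 TPM in replicates 1 to 5 of HCT116-CD276KO, in accord with the labels (log2 fold change −2.85, limma adjusted p = 1.39e-07). Of 7 epithelial markers, 6 exceeded 10 TPM in every library, whereas VIL1 reached at most 0.05 TPM. The summed epithelial markers ranged from 4361 to 5172 TPM in HCT116-WT and from 3444 to 3914 TPM in HCT116-CD276KO cells. All 6 of these markers were called lower by limma, against 556 of all 13581 genes. After the length and GC correction described below 6 remained so, against 699 of all 13472 genes. With quantile scaling 5 remained so, without HCT116-CD276KO replicates 2 and 3 it was 4, and with median-of-ratios scaling 2. In those 3 fits 385, 272 and 386 of all 13581 genes were called lower. The junction protein CDH1 was at 42.7 ± 4.92 and 20.4 ± 5.73 TPM (SD, n = 5; log2 fold change −1.07), and the part of this fall in the pathway results was not tested. Of 11 markers of leukocytes, fibroblasts, endothelium and liver, 9 stayed under 1 TPM in every library, with LUM at 0 throughout. The others were CD68 at 6.01 to 14.8 TPM and COL1A1 at 4.54 to 8.84 TPM, neither called by limma. The sum over all 11 was 18.2 to 22.8 TPM in HCT116-WT and 11.1 to 19.3 TPM in HCT116-CD276KO cells, and without CD68 and COL1A1 it was 0.25 to 0.44 TPM and 0.07 to 0.49 TPM. Transcript length and GC content related to the values unequally across libraries. Spearman's coefficient between transcript length and the deviation of a library from the mean, across 13472 genes, ranged from −0.094 to 0.43 in HCT116-WT, and was −0.52 and −0.49 in HCT116-CD276KO replicates 2 and 3 against −0.071 to 0.32 in the other HCT116-CD276KO replicates. The coefficient with GC content ranged from −0.34 to 0.61 in HCT116-WT, where replicate 3 was highest. It was 0.48 and 0.023 in HCT116-CD276KO replicates 2 and 3 and −0.28 to −0.12 in the other HCT116-CD276KO replicates. Some calls changed without HCT116-CD276KO replicates 2 and 3, or after a correction of every library for length and GC content. For the 10 genes, and for other pathway genes called with the TPM as deposited, the value is then given beside the call.

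Of the 10 genes, 9 were expressed at a mean of at least 1 TPM and were tested, and 3 differed between the groups at an adjusted p under 0.05. CCN1 and CCN2 were higher and TEAD4 was lower in HCT116-CD276KO cells. Across all 13581 genes tested, 4.87% passed this threshold, 4.09% as lower and 0.781% as higher. The co-activators YAP1 and WWTR1, as well as TEAD1, AMOTL2, LATS2 and AJUBA, did not pass. None of the 10 genes passed the threshold with a change of at least 2-fold, which 0.486% of all genes did. The same genes, TEAD4, CCN1 and CCN2, were those whose groups did not overlap, a separation seen in 7.61% of all genes (6.19% with HCT116-CD276KO cells lower and 1.42% higher).

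**Figure D1:**
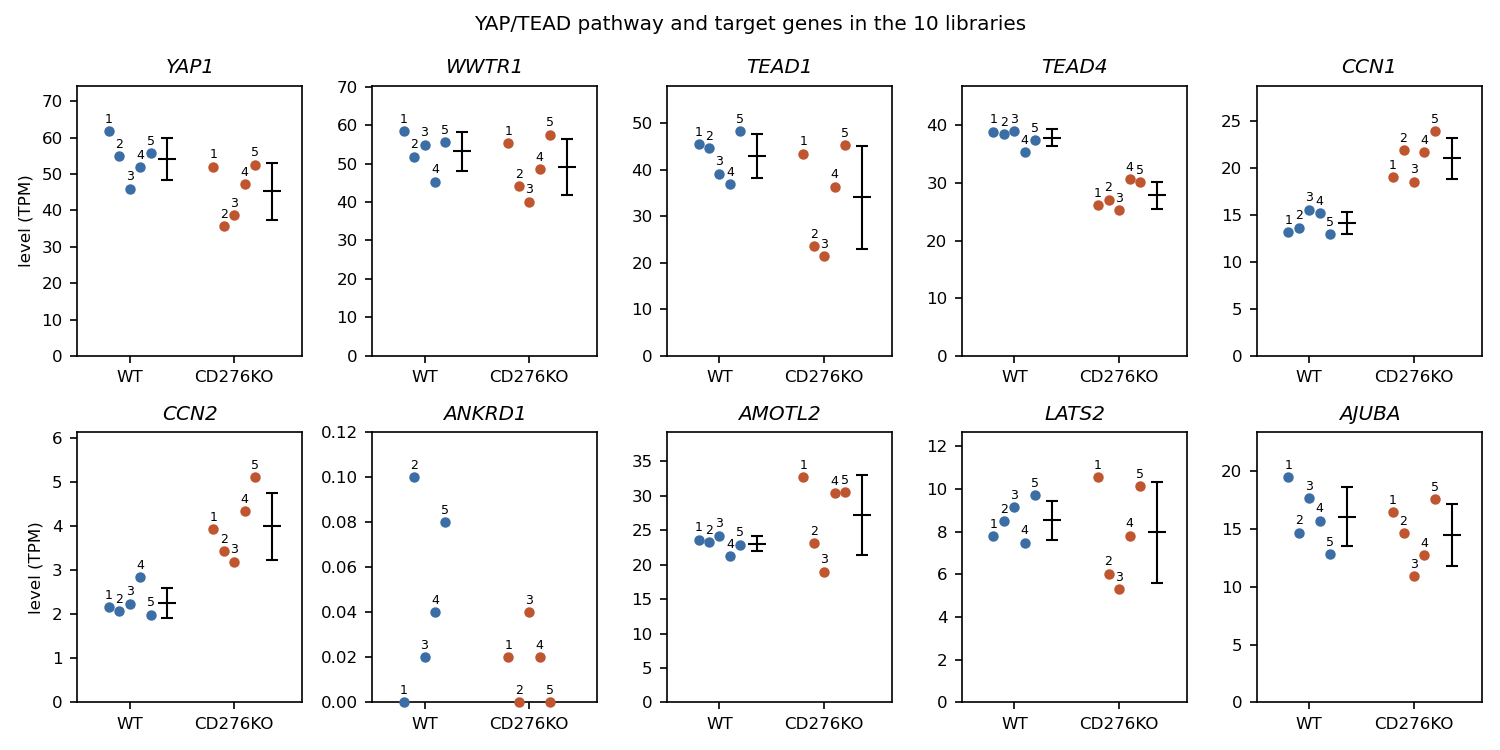
Level in TPM of each of the 10 genes in HCT116-WT (blue) and HCT116-CD276KO (orange) cells; points are libraries numbered by replicate, and the horizontal mark with its bar is the mean ± SD of 5 libraries, left out for ANKRD1. CCN1 and CCN2 lie higher and TEAD4 lower in all HCT116-CD276KO libraries, and replicates 2 and 3 lie lowest of that group for YAP1, WWTR1, TEAD1, CCN2, AMOTL2 and LATS2.

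CCN1 (ENSG00000142871, chr1:85580761-85584589, plus strand, hg38) encodes a secreted matricellular protein that binds integrins. The HCT116-WT replicates 1 to 5 held 13.2, 13.7, 15.6, 15.2 and 12.98 TPM, and the HCT116-CD276KO replicates 1 to 5 held 19.1, 21.9, 18.6, 21.7 and 24.0 TPM. The lowest HCT116-CD276KO library was above the highest HCT116-WT library. The mean rose from 14.1 ± 1.18 to 21.0 ± 2.22 TPM (SD, n = 5), a 1.45-fold change on the scale of log2(TPM + 1) (log2 fold change 0.54, SE 0.09, 95% confidence interval 0.35 to 0.73; limma adjusted p = 0.00423; exact permutation p = 0.00794, two-sided, the smallest that 5 against 5 libraries can give). With every library corrected for length and GC, it was 0.62 (limma adjusted p = 0.000571).

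CCN2 (ENSG00000118523, chr6:131948176-131951372, minus strand), whose promoter is printed above, encodes connective tissue growth factor, which is secreted and promotes matrix deposition. Its level was low, at 2.16, 2.08, 2.24, 2.84 and 1.99 TPM in HCT116-WT and 3.93, 3.43, 3.20, 4.35 and 5.11 TPM in HCT116-CD276KO replicates 1 to 5. Again every HCT116-CD276KO library exceeded every HCT116-WT library. The mean rose from 2.26 ± 0.336 to 4.00 ± 0.762 TPM (SD, n = 5), to 177% of the HCT116-WT level. Because 1 TPM was added before taking logarithms, the fitted log2 fold change of 0.61 (SE 0.12, 95% confidence interval 0.34 to 0.88; limma adjusted p = 0.0153; exact permutation p = 0.00794) was smaller than the log2 ratio of the means, 0.82. The ratio of CCN2 to CCN1 was 0.160 ± 0.0167 in HCT116-WT and 0.190 ± 0.0242 in HCT116-CD276KO cells (exact permutation p = 0.0556, adjusted p = 0.222 over 4 ratios). The sum of both genes was 14.97 to 18.02 TPM in HCT116-WT and 21.8 to 29.1 TPM in HCT116-CD276KO cells.

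ANKRD1 (ENSG00000148677, chr10:90912096-90921087, minus strand), a nuclear ankyrin repeat protein and a strong YAP target in many cell types, was close to 0 in both groups. It was listed at 0, 0.1, 0.02, 0.04 and 0.08 TPM in HCT116-WT and as 0.02, 0, 0.04, 0.02 and 0 TPM in replicates 1 to 5 of HCT116-CD276KO. ANKRD1 was not tested and no fold change is given, because the depth behind such values is not known from TPM. The gene with 2 promoter matches was therefore near the floor in the same cells in which CCN2, with 3 matches, was present in every library.

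AMOTL2 (ENSG00000114019, chr3:134355347-134375479, minus strand) encodes a junctional angiomotin-like protein that binds YAP1 and retains it in the cytoplasm. Its levels were 23.6, 23.3, 24.2, 21.2 and 22.9 TPM in HCT116-WT and 32.6, 23.1, 19.0, 30.4 and 30.5 TPM in HCT116-CD276KO replicates 1 to 5. HCT116-CD276KO replicates 1, 4 and 5 exceeded every HCT116-WT library, whereas replicate 2 lay within the HCT116-WT range and replicate 3 below it. The difference over all libraries did not pass the test (23.0 ± 1.13 against 27.1 ± 5.81 TPM, SD, n = 5; log2 fold change 0.20, 95% confidence interval −0.088 to 0.49; limma adjusted p = 0.372; exact permutation p = 0.151). HCT116-CD276KO replicates 2 and 3 had the steepest relation to transcript length and also the lowest AMOTL2 levels of their group. Without them the log2 fold change was 0.42 (SE 0.06, limma adjusted p = 0.00851). This omission was chosen after the data were seen and by itself raises the AMOTL2 estimate. In that fit 67 of all 13581 genes were called higher and 272 lower. After the length and GC correction of all 10 libraries the AMOTL2 estimate was 0.37 (SE 0.08, limma adjusted p = 0.0161) and the groups no longer overlapped. In the corrected fit, however, 9.64% of all genes passed, 4.45% as higher and 5.19% as lower. With the replicate number as a block as well, the adjusted p was 0.0527.

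LATS2 (ENSG00000150457, chr13:20973036-21061586, minus strand) encodes the kinase that phosphorylates YAP1 and TAZ, and is itself a target in a negative feedback loop. It was measured at 7.78, 8.49, 9.16, 7.49 and 9.71 TPM in HCT116-WT and 10.5, 6.03, 5.30, 7.82 and 10.1 TPM in HCT116-CD276KO replicates 1 to 5. HCT116-CD276KO replicates 1 and 5 were the highest of all libraries and replicates 2 and 3 the lowest, so that the groups overlapped fully (log2 fold change −0.12, 95% confidence interval −0.48 to 0.24; limma adjusted p = 0.675). The sign of the estimate turned in other settings, to 0.14 without replicates 2 and 3 and 0.067 after the correction, and it passed in neither (limma adjusted p = 0.662 and 0.724). Relative to its paralogue LATS1, LATS2 was at a ratio of 0.835 ± 0.130 in HCT116-WT and 0.942 ± 0.113 in HCT116-CD276KO cells (exact permutation p = 0.190, adjusted p = 0.254 over 4 ratios).

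AJUBA (ENSG00000129474, chr14:22971177-22982551, minus strand), a LIM protein of adherens junctions that binds and restrains LATS kinases, was at 19.4, 14.7, 17.6, 15.7 and 12.8 TPM in HCT116-WT and 16.4, 14.6, 10.9, 12.7 and 17.5 TPM in HCT116-CD276KO replicates 1 to 5. The ranges overlapped over most of their width, with the single lowest value in HCT116-CD276KO replicate 3. No difference was detected (16.04 ± 2.56 against 14.4 ± 2.69 TPM, SD, n = 5; log2 fold change −0.15, 95% confidence interval −0.45 to 0.15; limma adjusted p = 0.531). Of the 5 target and feedback genes tested, 2 were thus called higher and none lower, against 0.781% and 4.09% of all genes tested. Their median log2 fold change was 0.20, the value of AMOTL2, which was not called, against −0.09 over all genes tested. The 12 further target genes tested, described below, had a median of −0.20.

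**Figure D2:**
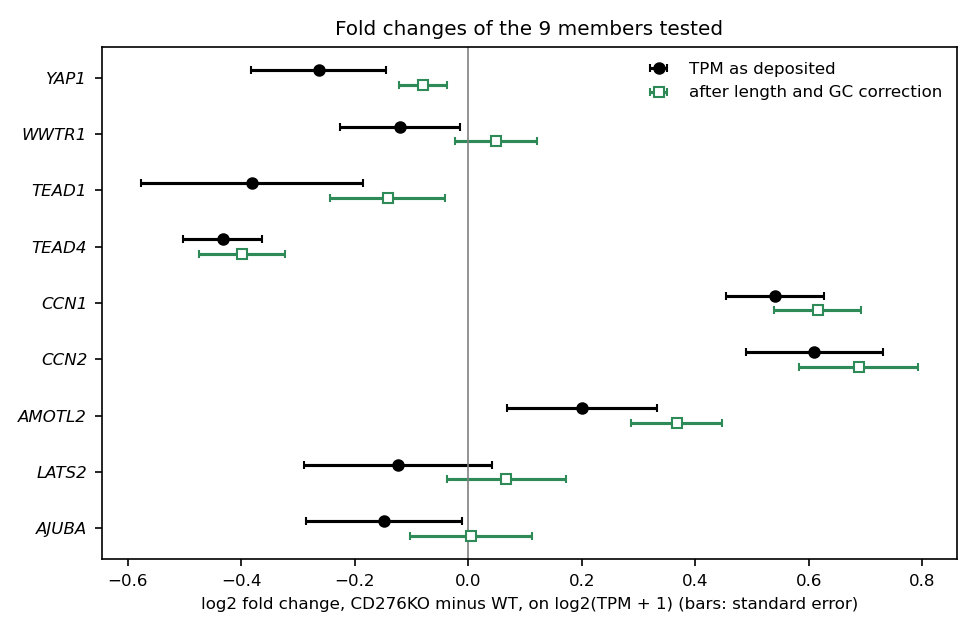
Log2 fold change (HCT116-CD276KO minus HCT116-WT, on log2(TPM + 1)) of the 9 genes tested, from the TPM as deposited (black circles) and after correction of each library for transcript length and GC content (green squares); bars are ± 1 standard error. CCN1, CCN2 and TEAD4 keep their side of 0 with either set of values, AMOTL2 moves from 0.20 to 0.37, and the estimates for WWTR1, LATS2 and AJUBA change sign close to 0.

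TEAD4 (ENSG00000197905, chr12:2959330-3040676, plus strand) encodes a DNA-binding partner of YAP1 and TAZ. Its levels in HCT116-WT replicates 1 to 5 were tightly grouped at 38.9, 38.4, 39.0, 35.4 and 37.5 TPM, and those in HCT116-CD276KO replicates 1 to 5 were 26.1, 27.1, 25.2, 30.6 and 30.1 TPM. The highest HCT116-CD276KO library was below the lowest HCT116-WT library. The mean fell from 37.8 ± 1.51 to 27.8 ± 2.396 TPM (SD, n = 5), to 73.6% of the HCT116-WT level (log2 fold change −0.43, SE 0.07, 95% confidence interval −0.58 to −0.28; limma adjusted p = 0.00434; exact permutation p = 0.00794). With all libraries corrected for length and GC, the estimate was −0.40 (limma adjusted p = 0.00794).

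TEAD1 (ENSG00000187079, chr11:12674421-12944737, plus strand), which binds the same motif, was at 45.5, 44.7, 39.2, 37.0 and 48.4 TPM in HCT116-WT and 43.5, 23.7, 21.5, 36.4 and 45.4 TPM in HCT116-CD276KO replicates 1 to 5. HCT116-CD276KO replicates 2 and 3, with a mean of 22.6 TPM, stood apart from replicates 1, 4 and 5 with a mean of 41.8 TPM, and the latter lay largely within the HCT116-WT range. Over all libraries the means were 42.9 ± 4.72 and 34.1 ± 11.1 TPM (SD, n = 5; log2 fold change −0.38, 95% confidence interval −0.81 to 0.048; limma adjusted p = 0.273). Without those 2 libraries the log2 fold change was −0.039 (limma adjusted p = 0.920), and with all libraries corrected it was −0.14 (limma adjusted p = 0.406). TEAD1 had the longest annotated transcript of the 10 genes, 9417 bases, and TEAD4 the shortest, 1710 bases.

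The other family members were TEAD2, at 21.5 ± 1.97 and 23.2 ± 1.79 TPM in HCT116-WT and HCT116-CD276KO cells, and TEAD3, at 14.6 ± 1.76 and 11.99 ± 1.75 TPM (SD, n = 5); neither passed the test (limma adjusted p = 0.458 and 0.191). TEAD1 and TEAD4 together therefore made up most of the TEAD transcripts in both groups. As a description, TEAD2 contributed 16.8% to 19.7% of the summed TEAD TPM in HCT116-WT and 21.7% to 27.7% in HCT116-CD276KO libraries, without overlap. Its share was 26.2% and 27.7% in HCT116-CD276KO replicates 2 and 3, and 23.5%, 21.7% and 21.8% in replicates 1, 4 and 5. The summed TEAD level was 105 to 124 TPM in HCT116-WT and 77.3 to 113 TPM in HCT116-CD276KO libraries, lowest in replicates 2 and 3. Shares were not computed on corrected values. The share of TEAD4 was 32.4% ± 1.46 and 29.1% ± 3.68, and that of TEAD1 36.7% ± 2.46 and 34.3% ± 6.12 (SD, n = 5). The ratio of TEAD4 to TEAD1 did not separate the groups (0.888 ± 0.0881 and 0.885 ± 0.266; exact permutation p = 0.794, adjusted p = 0.794 over 4 ratios). It was 0.774 to 0.995 in HCT116-WT. In HCT116-CD276KO replicates 2 and 3 it was 1.14 and 1.18, and in replicates 1, 4 and 5 it was 0.601, 0.840 and 0.664. The ratio was not tested after the length and GC correction or without replicates 2 and 3 together. Equal mean ratios therefore do not show that both genes fell alike.

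**Figure D3:**
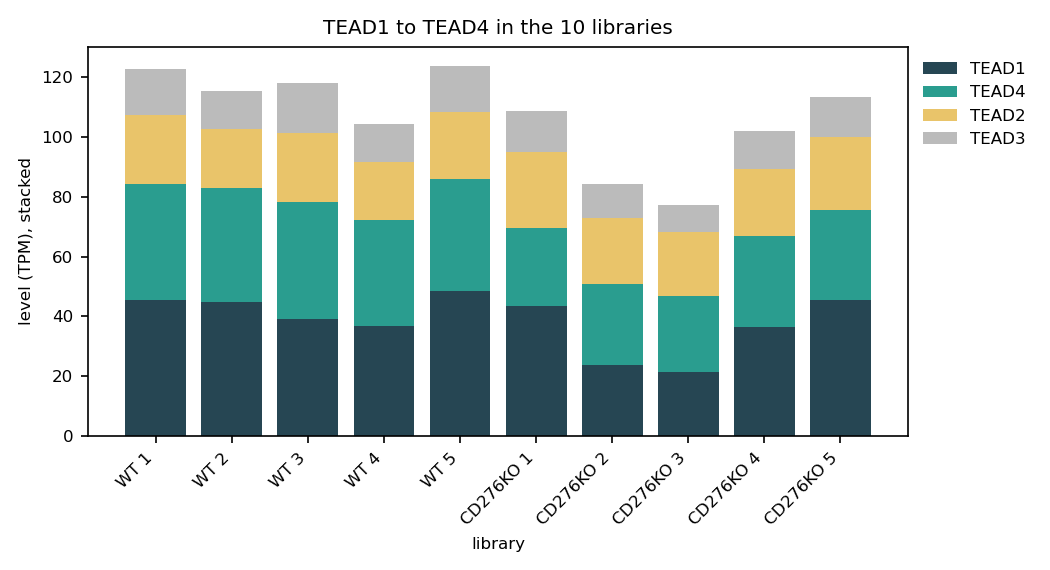
Stacked levels in TPM of TEAD1, TEAD4, TEAD2 and TEAD3 in each library. TEAD4 segments are shorter in all HCT116-CD276KO libraries (25.2 to 30.6 TPM) than in HCT116-WT libraries (35.4 to 39.0 TPM), and TEAD1 segments are shortest in HCT116-CD276KO replicates 2 and 3.

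YAP1 (ENSG00000137693, chr11:102110447-102233424, plus strand), the main effector of the pathway, was at 61.8, 54.9, 46.02, 51.9 and 55.7 TPM in HCT116-WT and 52.1, 35.6, 38.6, 47.2 and 52.5 TPM in HCT116-CD276KO replicates 1 to 5. HCT116-CD276KO replicates 2 and 3 were below every HCT116-WT library, and the remaining replicates lay within the HCT116-WT range. The lower mean, 45.2 ± 7.76 against 54.1 ± 5.78 TPM (SD, n = 5), did not pass the test (log2 fold change −0.26, 95% confidence interval −0.52 to −0.0032 without adjustment; limma adjusted p = 0.222; exact permutation p = 0.0873). Without replicates 2 and 3 the estimate was −0.089 (limma adjusted p = 0.731), and in the corrected libraries it was −0.08 (limma adjusted p = 0.265).

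WWTR1 (ENSG00000018408, chr3:149517235-149736714, minus strand), which encodes the paralogue TAZ, was at 58.5, 51.7, 54.9, 45.3 and 55.6 TPM in HCT116-WT and 55.2, 44.1, 40.1, 48.6 and 57.5 TPM in HCT116-CD276KO replicates 1 to 5. The groups overlapped, with the lowest values again in HCT116-CD276KO replicates 2 and 3. The log2 fold change was −0.12 (95% confidence interval −0.35 to 0.11; limma adjusted p = 0.507). WWTR1 and YAP1 were present at near-equal levels per transcript, with a ratio of WWTR1 to YAP1 of 0.990 ± 0.121 in HCT116-WT and 1.09 ± 0.0852 in HCT116-CD276KO cells (exact permutation p = 0.143, adjusted p = 0.254 over 4 ratios). Their summed level was 97.2 to 120 TPM in HCT116-WT and 78.7 to 110 TPM in HCT116-CD276KO cells.

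Ordered by level in TPM, YAP1, WWTR1, TEAD1 and TEAD4 led in HCT116-WT cells, and each overlapped its neighbour in this order. AMOTL2 followed, then AJUBA and CCN1, which overlapped each other, then LATS2, CCN2 and ANKRD1, which did not overlap their neighbours. In HCT116-CD276KO cells WWTR1, YAP1, TEAD1, TEAD4, AMOTL2 and CCN1 formed a run of overlapping neighbours, and AJUBA, LATS2, CCN2 and ANKRD1 followed without overlap. CCN1 thus stood below AJUBA in the mean of HCT116-WT cells and above it in HCT116-CD276KO cells.

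**Figure D4:**
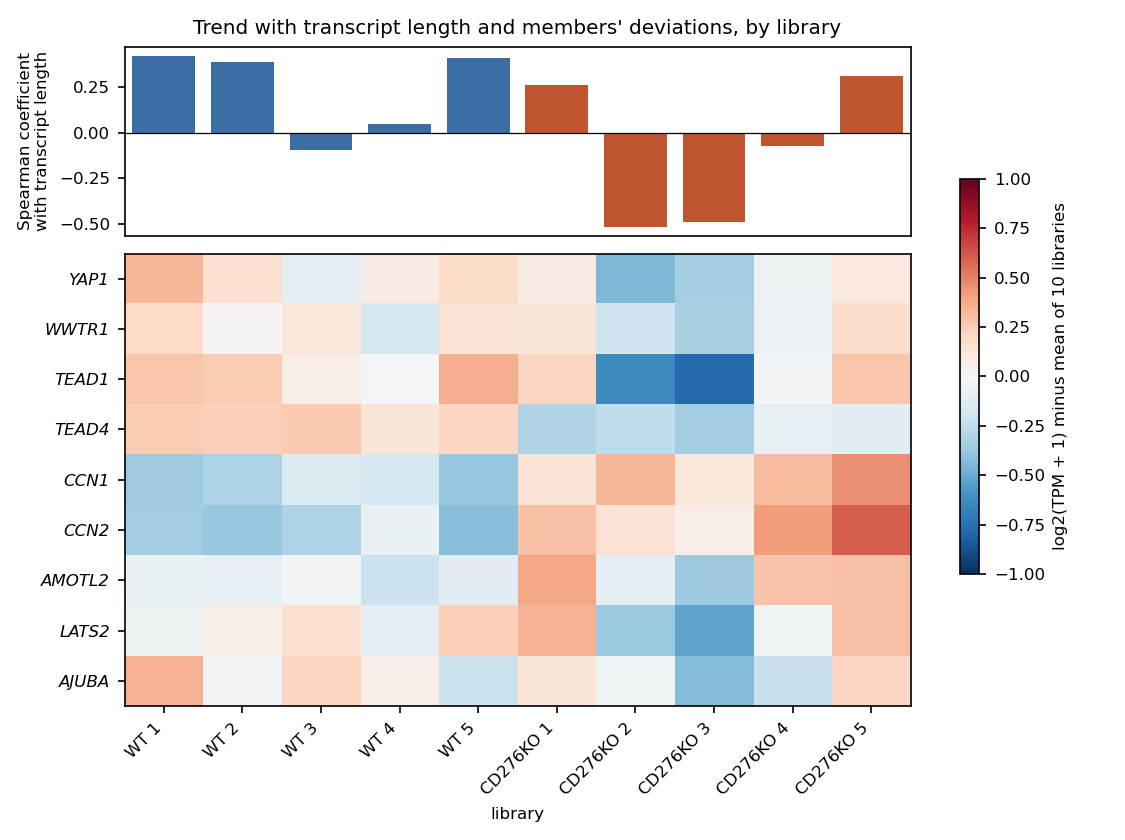
Top, Spearman's coefficient between transcript length and the deviation of each library across 13472 genes. Bottom, deviation of the 9 genes tested from their mean over 10 libraries, in log2(TPM + 1); HCT116-CD276KO replicates 2 and 3, with coefficients of −0.52 and −0.49, carry the lowest values of YAP1, WWTR1, TEAD1 and LATS2, whereas CCN1, CCN2 and TEAD4 separate the groups in every library.

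The remaining genes of the pathway were examined as 5 lists with 69 genes in all, of which 59 were tested. Called lower were 6 of them, and none was called higher. Of the 59, 52 had an estimate below 0, as did 9243 of all 13581 genes, and the median log2 fold change was −0.21, against −0.09 over all genes. The 52 became 41 with median-of-ratios scaling, where 6665 of all 13581 genes were below 0. Without HCT116-CD276KO replicates 2 and 3 they became 40, against 7924 of all 13581 genes. After the length and GC correction 38 were below 0, against 6322 of all 13472 genes. The median was then −0.04, against 0.01 over all genes, with 4 of the 59 called lower and 3 higher. Those called higher, named after their values were seen, were CRIM1, FAT1 and GADD45B. With the TPM as deposited their log2 fold changes were 0.075, −0.011 and 0.19 (limma adjusted p = 0.766, 0.972 and 0.192). None of them was called when the replicate block was added to the correction. They were called only in the fit with the correction alone. In that fit all genes together were called lower 699 and higher 600 times, against 556 and 106 times with the TPM as deposited, 386 and 197 times with median-of-ratios and 385 and 253 times with quantile scaling.

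Among upstream regulators, 3 of 17 genes tested were called lower, against 4.09% of all genes tested. WWC2, a WW and C2 domain protein that supports LATS activation, showed the clearest difference, with 15.3, 15.6, 14.1, 13.4 and 15.8 TPM in HCT116-WT and 8.41, 4.76, 5.15, 6.74 and 8.48 TPM in HCT116-CD276KO replicates 1 to 5. The groups were far apart, and the mean fell from 14.8 ± 1.01 to 6.71 ± 1.75 TPM (SD, n = 5; log2 fold change −1.07, SE 0.14, limma adjusted p = 0.00122). Its paralogue WWC1, known as KIBRA, was at 47.6 ± 4.33 and 33.4 ± 6.21 TPM (SD, n = 5; log2 fold change −0.51, limma adjusted p = 0.0256), with overlapping groups. PATJ, a polarity protein of tight junctions, was at 15.0 ± 1.32 and 10.4 ± 1.92 TPM (SD, n = 5; log2 fold change −0.50, limma adjusted p = 0.0334). After the length and GC correction the WWC1 estimate was −0.30 and no longer passed (limma adjusted p = 0.102), and that of PATJ was −0.27 and passed (limma adjusted p = 0.00374). Without HCT116-CD276KO replicates 2 and 3 neither passed (WWC1 −0.44, limma adjusted p = 0.145; PATJ −0.32, limma adjusted p = 0.0918). The WWC1 call was also lost without any one of HCT116-WT replicates 1, 2 or 4 or HCT116-CD276KO replicates 2, 3 or 4 (limma adjusted p = 0.0594 to 0.0744), and the PATJ call also without HCT116-WT replicate 5 (limma adjusted p = 0.0523 to 0.0944 over these 7 fits).

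In the kinase core, 1 of 16 genes tested was called lower, against 4.09% of all genes tested. It was the scaffold SAV1, at 59.5 ± 5.24 and 46.7 ± 4.89 TPM (SD, n = 5; log2 fold change −0.35, limma adjusted p = 0.0438). The call was lost after the length and GC correction (log2 fold change −0.24, limma adjusted p = 0.109), where the groups overlapped, and also with median-of-ratios or quantile scaling and without HCT116-CD276KO replicates 2 and 3 (limma adjusted p = 0.0938, 0.0856 and 0.158). It was kept on omission of HCT116-CD276KO replicate 5 but of none of the other 9 libraries (limma adjusted p = 0.0534 to 0.121 in those 9 fits). None of the 12 STRIPAK genes tested, subunits of the phosphatase complex that counteracts STK3 and STK4, was called by limma. Of these, 5 were lower at an unadjusted p under 0.05, as were 2389 of all 13581 genes. After the correction 3 were, as were 1641 of all 13472 genes. Likewise TEAD2, TEAD3 and VGLL4, a co-repressor that competes with YAP1 for TEADs, were not called by limma. At an unadjusted p under 0.05, 2 of the 3 were lower, against the same 2389 of all genes. After the correction 2 passed this cut, 1 of them lower and the other higher, against 3485 of all 13472 genes in either direction. With median-of-ratios or quantile scaling 1 passed, as higher (log2 fold change 0.20 and 0.22). In those 2 fits 2865 and 2845 of all 13581 genes passed it in either direction. Without HCT116-CD276KO replicates 2 and 3 none passed, against 2043 of all 13581 genes. VGLL1 and VGLL2 were listed at 0 in all libraries and VGLL3 at no more than 0.4 TPM.

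Among 17 further YAP/TEAD target genes, 12 were tested, 2 were called lower and none higher, against 4.09% and 0.781% of all genes tested. F3, which encodes tissue factor, the initiator of coagulation, was at 31.2, 31.2, 27.5, 35.3 and 28.7 TPM in HCT116-WT and 15.2, 18.1, 15.1, 16.7 and 20.0 TPM in HCT116-CD276KO replicates 1 to 5. The values fell from 30.8 ± 3.02 to 17.0 ± 2.08 TPM without overlap (SD, n = 5; log2 fold change −0.82, SE 0.09, limma adjusted p = 0.000398). MYOF, a membrane-repair protein, was at 96.8 ± 8.89 and 61.3 ± 18.3 TPM (SD, n = 5; log2 fold change −0.70, limma adjusted p = 0.0472), and its call held only without HCT116-CD276KO replicate 1 or 5 when libraries were left out one at a time (limma adjusted p = 0.0636 to 0.122 in the other 8 fits). HCT116-CD276KO replicates 2 and 3, at 42.5 and 42.1 TPM, were its lowest libraries, and without both the estimate was −0.39 and did not pass (limma adjusted p = 0.0817), whereas after the correction it was −0.48 and passed (limma adjusted p = 0.00965). Target genes of the pathway therefore did not all move in 1 direction, with CCN1 and CCN2 higher and F3 lower in the same libraries. The median over the 12 was −0.20. After the correction it was −0.06, with F3 and MYOF called lower and CRIM1 and GADD45B, also of this list, called higher. CRIM1 and GADD45B were called in no other fit, and not when the replicate block was added to the correction.

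**Figure D5:**
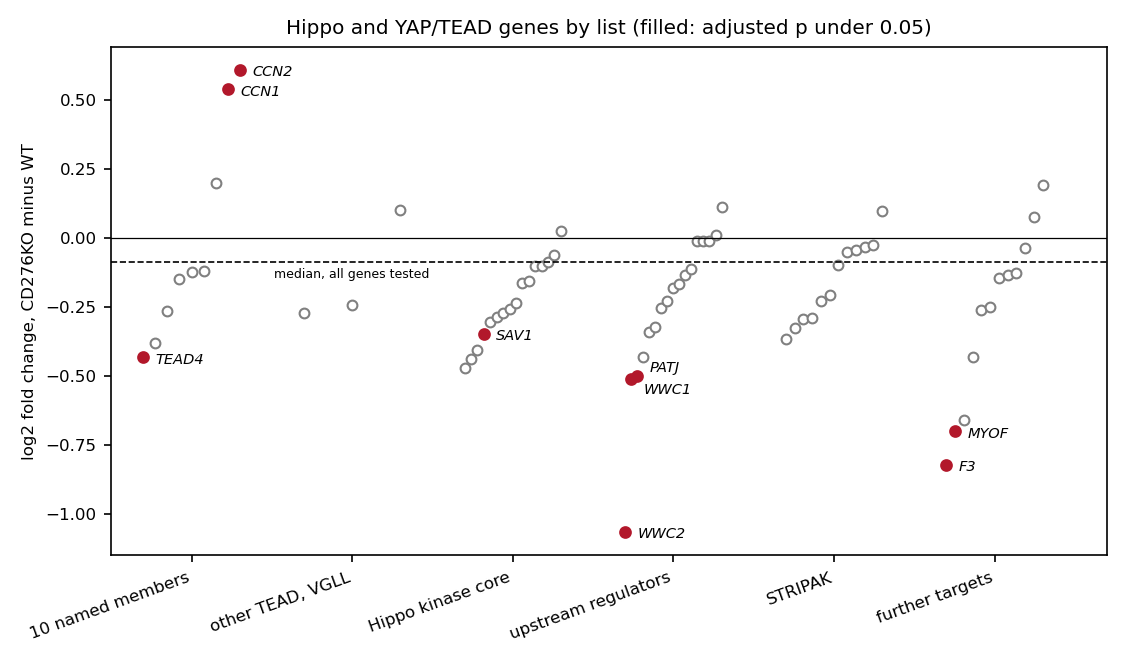
Log2 fold change of each gene tested (HCT116-CD276KO minus HCT116-WT, on log2(TPM + 1)), by list and in order of value within a list; filled points passed an adjusted p under 0.05 in limma, and the dashed line is the median of all genes tested, −0.09. CCN1 and CCN2 are the only filled points above 0, and WWC2 lies lowest at −1.07.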

How the data were processed

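Polyadenylated, strand-specific libraries were sequenced with single reads from 5 HCT116-WT and 5 HCT116-CD276KO replicates. Per the labels, the submitters' processing notes name STAR 2.5.2b, RSEM 1.3.0, featureCounts 1.5.1 and the builds hg38 and GRCh38; which tool gave the deposited TPM values is not given in the sources used here. The study tested counts, which were not analysed here, and TPM carry no read depth, so no counting error is given. TPM were compared as log2(TPM + 1) in limma 3.58.1 (R 4.3.3; lmFit, eBayes with trend) over the 13581 of 58050 genes that averaged 1 TPM or more, with Benjamini-Hochberg adjustment over all of them; single genes were also compared by a two-sided exact permutation test. The main fit was run on simulated data with independent normal noise for each gene and no length or GC trend. The correction was run after a linear length trend had been added to some simulated libraries. These simulations therefore do not show how the fits perform with the trends of the real libraries. Symbols were matched to Ensembl IDs for 56947 rows, and positions and transcript lengths were taken from GENCODE 44 (hg38). Promoters were taken from RefSeq. The length and GC correction subtracted from each library a loess fit (span 0.3) over 13472 genes. Named were the 10 genes, CD276, marker ranges and, from the other lists, genes called. The genes and lists were chosen with earlier results of these data known. Alternatives comprised another pseudocount, filters, median-of-ratios and quantile scaling, robust eBayes, a replicate block, the correction and leaving out libraries; leaving out HCT116-CD276KO replicates 2 and 3 together, and the block with the correction, were chosen after seeing the data.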

Additional observations from a re-analysis of the deposited data

How the results depend on the processing

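CCN1 and TEAD4 passed an adjusted p under 0.05 in limma in all 20 alternative fits (CCN1 log2 fold change 0.49 to 0.66, adjusted p = 0.000571 to 0.0306; TEAD4 −0.47 to −0.32, adjusted p = 0.00434 to 0.0413), and CCN2 in all 19 in which it was tested (0.53 to 0.79, adjusted p = 0.0022 to 0.0481); a mean of at least 5 TPM removed it by construction. F3 and WWC2 also passed in 20 of 20, MYOF and PATJ in 10, WWC1 in 9 and SAV1 in 4. AMOTL2 passed in 2 of 20, and the estimates not called turned sign for LATS2 (0.14 without HCT116-CD276KO replicates 2 and 3, 0.067 after the length and GC correction), WWTR1 (0.017 and 0.048) and AJUBA (0.0043 after the correction). Adding the replicate block to the correction left the values of 0.067, 0.048 and 0.0043 unchanged by construction. Each block pairs an HCT116-WT with an HCT116-CD276KO library, so that it can alter the errors but not the estimates. The count over all genes, 662, was 339 without HCT116-CD276KO replicates 2 and 3, 1299 after the correction, 378 with the replicate block, and 343 to 857 when 1 library was left out, with 345, 376, 421 and 343 without HCT116-WT replicates 1, 2, 4 and 5 and 407 and 375 without HCT116-CD276KO replicates 3 and 4. The count of other pathway genes, 6, was 2 with all genes above 0 TPM tested (30818 genes), 2 without HCT116-CD276KO replicates 2 and 3, 3 with the replicate block, and 2 to 7 on omission of single libraries, namely 2 without HCT116-WT replicate 1, 2 or 4 or HCT116-CD276KO replicate 2, 3 or 4, and 3 without HCT116-WT replicate 5. The count of the 10 genes called was 3 in each leave-one-out fit and 2 to 4 over all settings, 3 with the block. The log2 difference in the ratio of TEAD4 to TEAD1 was −0.053, and −0.17 to 0.073 on omission of single libraries, above 0 without HCT116-CD276KO replicate 1 (0.073) or 5 (0.037). Same-numbered libraries did not deviate together (correlations −0.18 to 0.12), so that the block pairs libraries by number only; paired sign flips of the ratios cannot give a p under 0.0625. Where fewer libraries were used the tests had fewer degrees of freedom; the cause of the other changes was not tested. TPM do not show the reads behind a value, so how depth limits the low genes CCN2 and ANKRD1 is unknown.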
